A study of Mus musculus with 24 samples.

Results

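Genes of the cartilage and bone lineages were followed across mouse embryonic fibroblasts (MEFs, connective tissue cells grown from whole embryos) that had lost Myc, Mlx, both or neither. They were Sox9, Acan, Comp, Runx2, Sp7, Ibsp, Alpl, Pth1r, Mgp and Coch, taken by name. Earlier results of these data were known when these genes were chosen. They are 10 of the 41710 genes in each of the tables for primary and for immortalized cells. Each table held 12 RNA sequencing libraries, with 3 libraries for each of 4 genotypes: WT, MlxKO, MycKO and DKO, the double knockout of Myc and Mlx. Myc is a transcription factor of the basic helix-loop-helix class that drives growth genes together with its partner Max, and Mlx is the corresponding partner of MondoA and ChREBP, which respond to glucose and its metabolites. The comparisons ask how loss of either factor, or of both, alters these genes, and whether the effect of losing one depends on the other.

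MEFs came from embryos of about embryonic day 14 to 16. The knockout strains carried 2 floxed alleles of Myc, of Mlx or of both and 2 copies of the ROSA26-CreER transgene, a Cre recombinase fused to an estrogen receptor that every cell type expresses from the ROSA26 promoter. Excision was induced with 500 nM 4-hydroxytamoxifen (4OHT), and the control exposure was the ethanol vehicle alone. By the study's account WT cells were MEFs whose loci had not been excised, more than 1 such line was in use, and immortalized WT controls were kept without 4OHT. Which line or lines gave the sequenced WT libraries, and so which floxed alleles these carried, is not given in the sources used here. The labels give a 4OHT dose for the knockout libraries only. WT loci were intact by the study's definition, and 4OHT excises floxed loci in cells with CreER, so primary WT cells are taken as unexposed too. Primary and immortalized knockouts thus differ from WT in 4OHT exposure as well as genotype. These cannot be told apart in comparisons with WT. Primary cells were sequenced on day 10. By then primary MycKO and DKO cultures had stopped dividing, and WT and MlxKO cultures had not. Immortalized cells were transduced with a lentivirus encoding SV40 T-antigen and blasticidin resistance, selected with blasticidin, and, for the knockouts, treated with 4OHT afterwards; all 4 genotypes of these divide, and by the study's account the MycKO cells among them are mostly tetraploid. Each genotype was a pool of at least 6 embryos according to the labels, so that genotype and pool cannot be told apart, and nothing says that the 3 libraries of a genotype came from separate embryos: p-values measure the spread between these libraries, which may be technical. In such bulk samples, fewer cells of a type and less RNA per cell cannot be told apart.

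Cartilage cells arise from mesenchyme under the transcription factor Sox9, which with Sox5 and Sox6 turns on collagen II and aggrecan (Acan). Bone-forming osteoblasts need Runx2 and, after it, Sp7 (osterix), and mature osteoblasts make bone sialoprotein (Ibsp) and the tissue-nonspecific alkaline phosphatase (Alpl) that frees phosphate for mineral. Pth1r, the receptor for parathyroid hormone and its related protein, sets the pace of cartilage maturation, Mgp (matrix Gla protein) keeps cartilage and vessel walls from mineralizing, Comp is a matrix protein of cartilage and tendon, and Coch encodes cochlin, a secreted matrix protein best known from the inner ear. MEFs are taken from embryos whose skeleton is forming, so they can hold cells with part of these programs.

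All 10 genes are protein-coding and lie on different chromosomes of GRCm39 in GENCODE vM39. On the plus strand are Sox9 at chr11:112673009-112678586, Acan at chr7:78702964-78764847, Comp at chr8:70826192-70834716, Ibsp at chr5:104447037-104459338 and Coch at chr12:51639894-51653316. On the minus strand are Runx2 at chr17:44806874-45125684, Sp7 at chr15:102265038-102279370, Alpl at chr4:137469039-137524102, Pth1r at chr9:110550767-110576259 and Mgp at chr6:136849433-136852821.

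Because Myc and Mlx partners bind E-boxes, the 250 bases before the annotated start were searched for CACGTG and for CACATG on both strands. RefSeq promoters on GRCm38.p6 matched 6 of the 10 members by symbol, with 9 promoters between them (Acan, Runx2, Ibsp, Alpl, Pth1r and Coch). CACGTG, which is its own reverse complement, was in none of the 9 promoters, against 6.02% of the 32851 promoters searched. CACATG or its reverse complement CATGTG was in 1 of them, a Runx2 promoter, against 12.3% of all promoters. The match lay 78 to 73 bases before the start. The 2 sequences below were chosen after values were seen, Runx2 because it holds the match, shown in capitals, and Coch because it had the largest difference of any member in primary cells. They are chr17:44814628-44814877 on the minus strand and chr12:51593091-51593340 on the plus strand. No match says only that these letters are not in this window.
Runx2: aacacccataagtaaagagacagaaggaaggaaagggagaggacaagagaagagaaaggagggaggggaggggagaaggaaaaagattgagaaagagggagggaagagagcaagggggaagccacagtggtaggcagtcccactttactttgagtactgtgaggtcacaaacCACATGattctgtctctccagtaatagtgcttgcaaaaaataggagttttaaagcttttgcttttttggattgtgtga
Coch: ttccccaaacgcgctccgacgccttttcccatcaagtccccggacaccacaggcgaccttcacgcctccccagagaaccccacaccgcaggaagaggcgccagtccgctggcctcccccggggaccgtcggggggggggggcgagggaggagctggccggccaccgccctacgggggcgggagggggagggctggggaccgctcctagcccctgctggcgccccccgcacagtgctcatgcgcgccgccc

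Values are the deposited CPM, reads relative to library size, with 15986856 to 20966163 reads on genes per primary library and 17541112 to 19851300 per immortalized library. The floor of 3 reads was 0.149 to 0.196 CPM in primary and 0.145 to 0.183 CPM in immortalized libraries, and it covers counting error only. Fold values below are ratios of mean CPM, and log2 differences with their standard error (SE) are on the log2(CPM + 1) scale, which understates changes of low genes. Adjusted p-values are two-sided, from limma with Benjamini-Hochberg adjustment over all genes tested, and a gene is called at an adjusted p under 0.05. The targeted genes went with the labels in primary cells, where Myc was 89.8 to 100.1 CPM in WT, 25.8 to 26.8 CPM in MycKO and 19.9 to 22.9 CPM in DKO, and Mlx was 20.5 to 26.0 CPM in WT, 13.0 to 14 CPM in MlxKO and 9.73 to 12.0 CPM in DKO. In immortalized cells, Myc was 39.9, 48.1 and 177.5 CPM in WT against 9.96 to 17.2 CPM in MycKO and 4.25 to 8.02 CPM in DKO, and Mlx was 20.5 to 25.1 CPM in WT, 12.1 to 17.0 CPM in MlxKO and 14.5 to 18.0 CPM in DKO. The study reports nearly complete excision in both kinds of cells, with loss of the proteins, and its LoxP sites flank some of the exons of each gene. Which exons or cells the remaining reads came from was not tested. The WT value of 177.5 CPM was that of immortalized WT library 4, which stood apart: across genes its log2 values correlated with those of WT libraries 2 and 3 at 0.943 to 0.95, while libraries of the same genotype otherwise correlated at 0.983 to 0.996 and WT libraries 2 and 3 correlated with DKO at 0.965 to 0.976. Log2 differences of the members from immortalized WT are therefore given with and without it, and for other genes where leaving it out moves the difference by over 1.5 times or ends the call. Myc in immortalized MlxKO was 72.4, 82.8 and 79.5 CPM, below WT library 4 and above WT libraries 2 and 3. Without library 4, Myc was higher in MlxKO than in WT by 0.82 on the log2 scale (limma, adjusted p 0.00955). All 12 fibroblast markers were present in each group of both tables. Summed macrophage markers were 341.5 to 666.7 CPM in primary WT and 58.6 to 88.3 CPM in primary MycKO, and 1.64 to 5.91 CPM in immortalized cells, where 8 to 10 of the 12 were under 0.2 CPM. Summed proliferation genes were 1300.0 to 1370.0 CPM in primary WT against 608.9 to 647.6 CPM in primary DKO, and 2426 to 3254 CPM over all immortalized libraries. Whether these differences in makeup and growth bear on the genes below was not tested.

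Per kilobase of exon, Mgp was the highest of the 10 genes in primary WT cells at 185.8 CPM per kb (176.7 to 196.7 over 3 libraries), followed by Coch at 18.7, Sox9 at 6.74 and Runx2 at 5.92, none of which overlapped its neighbour. Pth1r (2.24 to 2.65 CPM per kb) and Acan (2.32 to 2.47) overlapped, and Comp lay at 0.553. Ibsp had a mean of 0.997 CPM per kb but ranged from 0 to 2.96, carried by WT library 2, and so overlapped all genes from Acan and Pth1r down. Sp7 (0.0770 to 0.158) and Alpl (0.0434 to 0.230) were at the low end and overlapped. In immortalized WT cells Mgp was again highest, at 131.2 CPM per kb, and Coch (13.2 to 37.8) lay above Runx2 (9.34 to 11.4) and Sox9 (7.35 to 10.7), which overlapped. Comp spanned 0.122, in library 4, to 17.4 CPM per kb there and overlapped Coch, Runx2 and Sox9 as well as Acan (0.371 to 0.873) and Pth1r (0.256 to 0.434), which also overlapped each other. The 2 tables were normalized separately, so these levels are set side by side and no difference between them was tested.

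**Figure D1:**
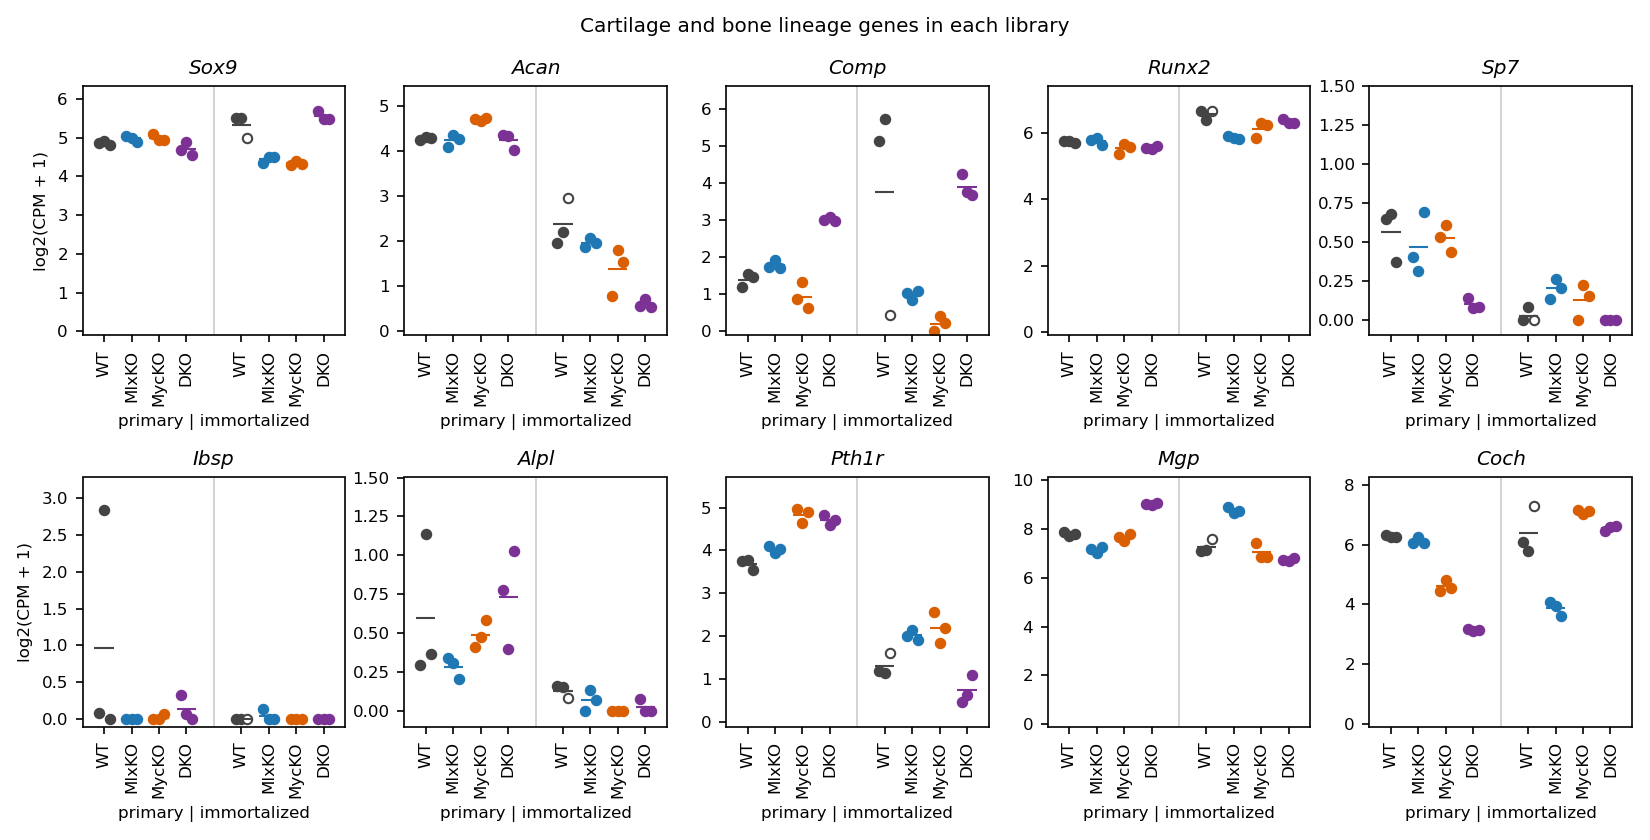
log2(CPM + 1) of the 10 genes by genotype in primary (left of the line) and immortalized cells, with 1 point per library, a bar for the mean and an open circle for immortalized WT library 4; each gene has its own scale. Sp7 and Alpl reach at most 12 and 22 reads in any library, Ibsp reaches 113 reads in primary WT library 2 and at most 5 elsewhere, and Comp in immortalized WT splits between 0.365 CPM in library 4 and 34.0 and 52.0 CPM in the other libraries.

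At least 1 CPM in at least 3 libraries was reached by 7 of the 10 genes in both tables, and only these were tested. Primary MycKO cells had 2 of the 7 higher than WT (Acan and Pth1r), where 20.4% of all genes tested were higher, and 2 lower (Comp and Coch), where 21.9% were lower. In primary MlxKO cells 0 were higher, against 3.75% of all genes, and 1 was lower (Mgp), against 5.14%. At an unadjusted p under 0.05, limma had 2 higher there (Comp and Pth1r), and edgeR and DESeq2 also called 0. Primary DKO cells had 3 higher (Comp, Pth1r and Mgp), against 24%, and 1 lower (Coch), against 25.5%. These 3 comparisons share the WT libraries. As a median over the 7 genes, the log2 difference was -0.14 for MycKO, 0.02 for MlxKO and -0.04 for DKO, with medians over all genes within 0.002 of 0. With 7 genes tested, each of these counts lay within 2 genes of what the shares over all genes would give.

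Immortalized MycKO cells had 1 of the 7 higher than WT (Pth1r), against 24.4% of all genes, and 4 lower (Sox9, Acan, Comp and Runx2), against 23.5%. Without WT library 4 these counts were 2, with Coch added, and 4, against 27.3% and 26.7%. MlxKO cells had 2 higher (Pth1r and Mgp), against 19.1%, and 4 lower (Sox9, Comp, Runx2 and Coch), against 19.9%, and the counts were again 2 and 4 without library 4, against 23.1% and 23.8%. DKO cells had 0 higher, against 10.4%, and 2 lower (Acan and Mgp), against 8.51%. None was higher at an unadjusted p under 0.05 either, and edgeR and DESeq2 called 0. Without library 4, DKO cells had 1 higher (Coch), against 12.0%, and 2 lower (Acan and Comp), against 10.1%. As a median over the 7 genes, the log2 difference was -0.44 for MycKO, -0.71 for MlxKO and -0.23 for DKO, with medians over all genes of -0.001, 0.007 and -0.005. Without WT library 4 these medians were -0.39, -0.66 and -0.37, so that the DKO value moved by over 1.5 times, against 0.003, 0.004 and -0.004 over all genes.

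**Figure D2:**
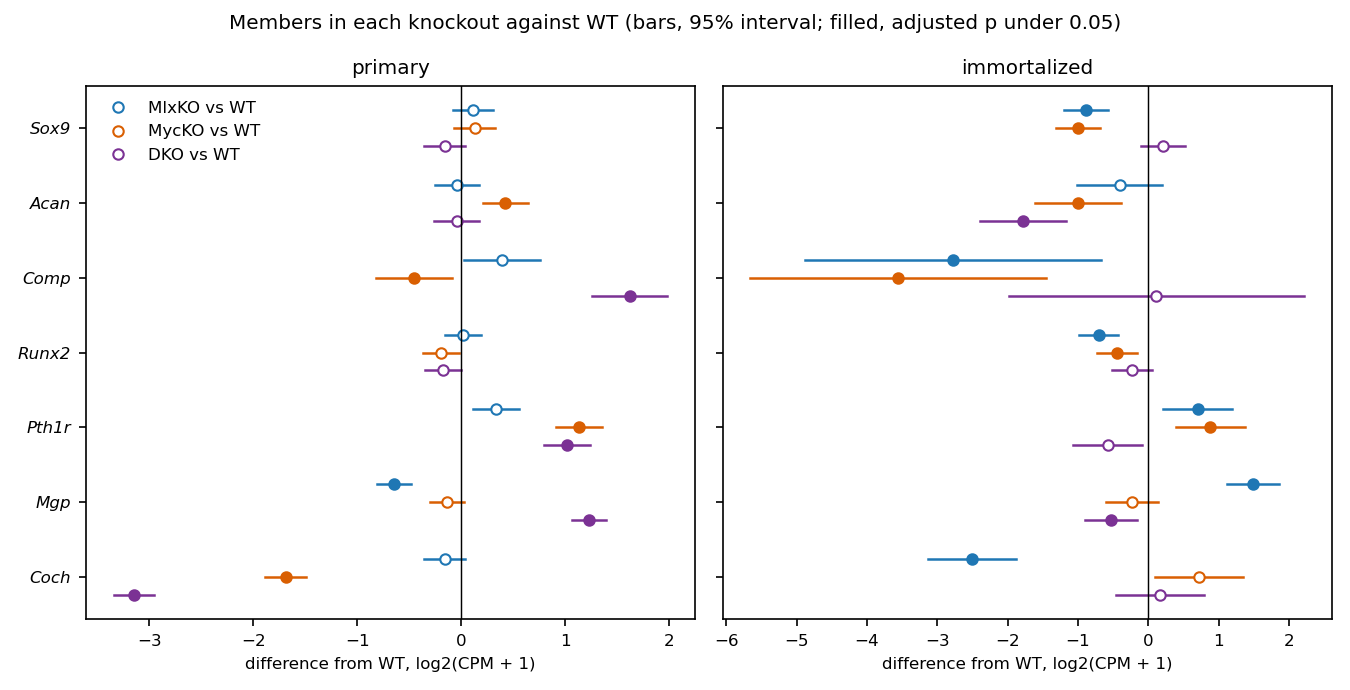
Log2 differences from WT of the 7 tested genes in MycKO, MlxKO and DKO cells, primary and immortalized, with bars for the 95% interval and filled points for calls. Coch in primary DKO lies lowest of the primary values at -3.15 and Mgp in primary DKO lies at 1.23, while Mgp is at -0.64 in primary MlxKO and at 1.49 in immortalized MlxKO.

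Sox9, the transcription factor that starts and maintains the cartilage program, was held within a narrow range in primary cells. It was 28.2, 29.4 and 26.9 CPM in WT, 32.0, 30.9 and 28.9 CPM in MlxKO, 33.3, 29.5 and 29.9 CPM in MycKO and 24.6, 28.8 and 22.3 CPM in DKO libraries. The single knockouts differed from WT by 0.13 ± 0.09 (SE) in MycKO and by 0.11 in MlxKO on the log2 scale (limma, adjusted p of 0.282 and 0.497). DKO differed from WT by -0.16 (0.168), which passed without DKO library 14 (-0.26, 0.0389) and with library-total scaling (-0.24, 0.0384). Sox9 was lower in DKO than in MycKO by -0.29 (adjusted p 0.0346) and than in MlxKO by -0.27 (adjusted p 0.0223). Both calls were lost without DKO library 13 (adjusted p 0.101 and 0.0654) or DKO library 15 (0.186 and 0.128), the former also without MycKO library 9 (0.136) or 11 (0.0558) and the latter without MlxKO library 5 (0.0758) or 6 (0.0588). The call against MycKO was also lost with no filter (0.0546) and with only the groups compared (0.0813).

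In immortalized cells Sox9 separated the single knockouts from the rest. It was 44.7, 44.6 and 30.7 CPM in WT, the last in library 4, and 50.6, 43.4 and 43.8 CPM in DKO, but 19.4, 21.8 and 21.5 CPM in MlxKO and 18.5, 20 and 19.1 CPM in MycKO. No single-knockout library overlapped a WT or DKO library. The log2 difference from WT was -1.0 ± 0.15 in MycKO (limma, adjusted p 0.000183) and -0.88 in MlxKO (0.00100), and without library 4 it was -1.18 ± 0.11 (1.36e-06) and -1.06 (9.53e-06). DKO differed from WT by 0.21 (adjusted p 0.316), or by 0.04 without library 4 (0.851), and exceeded MycKO by 1.21 (5.64e-05) and MlxKO by 1.1 (0.000226).

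Runx2, which commits mesenchymal cells to bone and is also needed by maturing cartilage cells, was at 51.3 to 53.2 CPM in primary WT, 48.4 to 56.2 CPM in MlxKO, 40.6 to 49.8 CPM in MycKO and 44.7 to 48.2 CPM in DKO. All MycKO and DKO libraries lay below the WT libraries, yet none of the differences passed, with -0.19 ± 0.08 in MycKO (95% interval -0.37 to -0.02, limma adjusted p 0.0657) and -0.18 in DKO (0.0775). The MycKO difference passed without MycKO library 10 (-0.26, adjusted p 0.0126), and DKO lay below MlxKO by -0.20 (0.0556), which passed without MlxKO library 7 (-0.26, 0.0218). With library-total scaling all 3 passed, at -0.30 in MycKO (0.00681) and -0.26 in DKO (0.0127) against WT and -0.31 in DKO against MlxKO (0.00448), while the median of all genes moved to -0.095, -0.079 and -0.12. Both DKO differences also passed with only the groups compared (0.0214 and 0.0285). Immortalized WT libraries had 100.4, 82.5 and 101.2 CPM, MlxKO 59.2, 57.1 and 55.9 CPM, MycKO 56.5, 78.4 and 74.6 CPM and DKO 85.1, 77.3 and 77.7 CPM. Runx2 fell in MlxKO by 0.71 on the log2 scale (adjusted p 0.00181; -0.66 and 0.00171 without library 4) and in MycKO by 0.44 (0.0143; -0.39 and 0.0264 without library 4), the latter not passing without WT library 2 (-0.40, adjusted p 0.0544) or with only the groups compared (0.0749). DKO overlapped WT, with -0.23 (adjusted p 0.216; -0.18 and 0.359 without library 4). It exceeded MlxKO by 0.47 (0.0168), which did not pass without DKO library 13 (0.0537), MlxKO library 6 (0.0551) or MlxKO library 7 (0.0619), or with library-total scaling (0.30, 0.0691). Exons of Runx2 overlap those of the opposite-strand genes Supt3 and Runx2os1 over 4.10% and 5.87% of their length, and the strand setting of the counting is not given in the sources used here.

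Sp7, which acts after Runx2 in osteoblasts, was barely detected. Primary libraries held 10, 11 and 5 reads in WT, 6, 4 and 12 in MlxKO, 8, 8 and 7 in MycKO and 2, 1 and 1 in DKO. All DKO libraries were at or under the floor of 3 reads, and all others lay above it. Sp7 was below the filter for testing. With no filter, limma gave adjusted p-values of 0.00438 against WT, 0.0181 against MycKO and 0.0175 against MlxKO for DKO, and 0.849 and 0.731 for MycKO and MlxKO against WT. Immortalized libraries held 0 to 4 reads, with 2, 4 and 3 in MlxKO and 0 in all DKO libraries. With no filter, limma gave adjusted p-values there of 0.0408 for MlxKO against WT and 0.0273 for DKO against MlxKO. It gave 0.0135 for the interaction described below, and 0.154 to 0.844 for the other comparisons. These reads lie around the floor, so no difference is described there.

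Acan, the core protein of the large proteoglycan that gives cartilage its resistance to compression, was higher than WT in primary and lower in immortalized MycKO cells, a difference between tables that was not tested. Primary WT libraries had 18.0, 19.1 and 18.5 CPM, MlxKO 16.1, 19.7 and 18.3 CPM, MycKO 25.2, 24.5 and 25.9 CPM and DKO 19.6, 19.3 and 15.3 CPM. MycKO lay above all other primary libraries, with a rise of 0.43 ± 0.10 over WT on the log2 scale (limma, adjusted p 0.00292), and DKO was lower than MycKO by -0.47 (0.003). DKO and WT overlapped, with a difference of -0.04 (adjusted p 0.755).

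In immortalized cells Acan was lower and spread more. WT libraries had 2.87, 3.61 and 6.76 CPM, the last in library 4, MlxKO 2.66, 3.20 and 2.86 CPM, MycKO 0.716, 2.47 and 1.91 CPM, and DKO 0.455, 0.622 and 0.442 CPM. All MycKO and DKO libraries lay below the WT libraries, with and without library 4. The difference from WT was -1.0 ± 0.28 in MycKO (limma, adjusted p 0.0115; -0.71 ± 0.24 and 0.0254 without library 4) and -1.78 in DKO (0.00137; -1.49 and 0.000691 without it). The MycKO call was lost with only the groups compared (0.0633). MlxKO overlapped WT, at -0.41 (0.262; -0.11 and 0.722 without library 4). Mean CPM in WT was 8.71-fold that of DKO, or 6.39-fold without library 4. DKO was also lower than MlxKO by -1.37 (adjusted p 0.00355), whereas the difference from MycKO, -0.78, had an adjusted p of 0.0523, and of 0.0107 without WT library 4 and 0.0111 without MycKO library 9. This difference was larger and passed with a pseudocount of 0.1 (-1.43, 0.0236) and in the count tests of the recovered reads (edgeR -1.73, 0.0187; DESeq2 -1.75, 0.00463), and it also passed with library-total scaling (0.0478), only the groups compared (0.0339) and a robust prior (0.0495).

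Comp, a pentameric protein of the thrombospondin family in cartilage and tendon matrix, was highest in primary DKO cells. It was 1.3, 1.90 and 1.75 CPM in WT, 2.35, 2.81 and 2.26 CPM in MlxKO, 0.832, 1.5 and 0.548 CPM in MycKO and 7.05, 7.45 and 6.85 CPM in DKO libraries. All DKO libraries lay above every other primary library. Mean Comp in DKO was 4.31-fold that of WT (log2 difference 1.62, limma adjusted p 1.03e-06), 7.40-fold that of MycKO (1.87e-07) and 2.88-fold that of MlxKO (2.05e-05). The fall in MycKO against WT was small and the libraries overlapped, at -0.46 ± 0.17 (adjusted p 0.0418). It was lost without WT library 2 (0.133) or 3 (0.0971) and without MycKO library 9 (0.107) or 11 (0.202, at -0.30), with no filter (0.0809) and with only the groups compared (0.116). With a pseudocount of 0.1 it was -0.81 (0.0283), and edgeR and DESeq2 gave -0.82 (0.0428 and 0.0305).

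Immortalized Comp turned on a single WT library. WT libraries 2 and 3 had 34.0 and 52.0 CPM, whereas library 4 had 0.365 CPM. MlxKO had 1.06, 0.801 and 1.12 CPM, MycKO 0, 0.330 and 0.169 CPM, and DKO 17.9, 12.4 and 11.7 CPM. Without library 4, all 3 knockouts lay below WT and did not overlap it, DKO included. The log2 difference from WT was -3.56 ± 0.97 in MycKO (limma, adjusted p 0.00989), -2.77 in MlxKO (0.0385) and 0.12 in DKO (0.945) with all libraries. Without library 4 these were -5.22 ± 0.22 (3.60e-10), -4.43 (5.78e-09) and -1.54 (0.000208), so that the DKO value changed sign. MycKO libraries lay around the floor of 3 reads, so the size of their difference depends on the pseudocount, at -5.38 with 0.1 (0.00576) and -7.40 and -7.44 in edgeR and DESeq2 (0.000909 and 1.2e-07). The MycKO call was lost with only the groups compared (0.0574). The count tests also called MlxKO (edgeR -4.83, 0.0049; DESeq2 -4.84, 0.000516), and they placed DKO below WT with all libraries without calling it (-1.03 and -1.04, adjusted p 0.420 and 0.571). The MlxKO call was lost without WT library 2 (0.145) or 3 (0.135) and without MlxKO library 5 (0.0752), 6 (0.105) or 7 (0.0860), and with a pseudocount of 0.1 (0.0794), no filter (0.0749), only the groups compared (0.135) or a robust prior (0.0778).

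Comparisons among the knockouts do not use WT values, but share the spread of all libraries. Immortalized DKO had more Comp than MycKO by 3.67 on the log2 scale (limma, adjusted p 0.0129) and than MlxKO by 2.89 (0.0398). With WT library 4 out of the estimate of spread, the same differences had adjusted p-values of 3.27e-09 and 6.70e-08. The MlxKO comparison was lost on leaving out any of DKO libraries 13 (0.0979), 14 (0.0920) and 15 (0.0849) or MlxKO libraries 5 (0.0791), 6 (0.107) and 7 (0.0918), and with a pseudocount of 0.1 (0.0534), no filter (0.0755) or a robust prior (0.081).

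**Figure D3:**
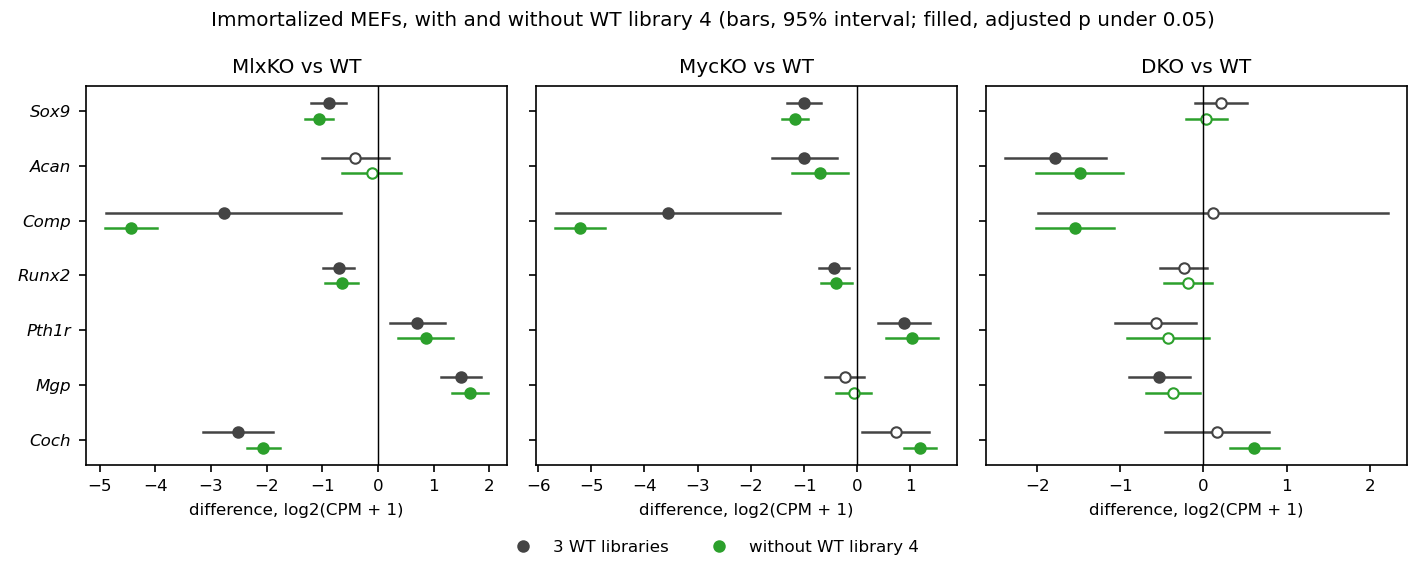
Log2 differences from WT in immortalized MycKO, MlxKO and DKO cells for the 7 tested genes, with all 3 WT libraries and without WT library 4, with bars for 95% intervals and filled points for calls. Comp in DKO moves from 0.12 to -1.54 and Coch in DKO from 0.16 to 0.61, while Sox9 in MycKO moves only from -1.0 to -1.18.

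The sum of 5 tendon markers, like Comp, was highest among primary cells in DKO, but the order of the other groups was not that of Comp. The summed level of Scx, Tnmd, Mkx, Thbs4 and Kera was 25.6 to 29.2 CPM in primary WT, 35.2 to 39.9 CPM in MlxKO, 33.6 to 34.7 CPM in MycKO and 80.6 to 83.2 CPM in DKO. Thbs4, a thrombospondin related to Comp, rose in primary DKO from a mean of 2.21 to 30.9 CPM, and Tnmd, which encodes tenomodulin, rose from 6.96 to 28.6 CPM. Together Thbs4 and Tnmd carried most of the rise of the sum, and Scx, Mkx and Kera little of it. In immortalized cells the sum was 169.3 to 234.4 CPM in WT, 72.3 to 88.6 CPM in MlxKO, 20.4 to 24 CPM in MycKO and 50.4 to 53.5 CPM in DKO, with no overlap between genotypes. Thbs4 made up most of the WT sum there, with means of 149.9 CPM in WT, 15.4 in MlxKO, 0.663 in MycKO and 11.4 in DKO. The other markers together had a lower mean in WT than in MlxKO, so the order of these genotypes rested on Thbs4. In primary MycKO the tendon sum thus lay above WT while mean Comp lay below it, and in immortalized cells the sum was lower in DKO than in MlxKO while Comp was higher. The WT range includes library 4, whose tendon sum was not low as its Comp was. At least 1 of the 5 markers was under 0.2 CPM in all libraries of primary WT and of each immortalized genotype. The part of tendon-like cells in the Comp values was not tested.

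Ibsp and Alpl, made by mature osteoblasts, were below the filter for testing in both tables. Ibsp had 1, 113 and 0 reads in primary WT, 0 in all MlxKO libraries, 0, 0 and 1 in MycKO and 5, 1 and 0 in DKO. Nearly all of its reads were thus in WT library 2, at 6.14 CPM, and this library also held the most Alpl reads of any. Alpl had 4, 22 and 5 reads in WT, 5, 4 and 3 in MlxKO, 6, 6 and 10 in MycKO and 14, 6 and 18 in DKO, so that WT library 2 had 1.2 CPM and DKO 0.317 to 1.04 CPM. In immortalized cells Ibsp had 2 reads in all, both in 1 MlxKO library, and Alpl had at most 2 reads in any library. With no filter, limma gave Alpl an adjusted p of 0.0311 in immortalized MycKO against WT, at reads under the floor. No other comparison of Ibsp or Alpl was called with no filter in either kind of cells. With 3 libraries against 3, the smallest p an exact permutation test of a single gene can give is 0.10, so none was run.

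Pth1r receives parathyroid hormone-related protein in growth plate cartilage and parathyroid hormone in bone. It was higher in primary MycKO and DKO cells than in primary WT and MlxKO cells. Primary WT libraries had 12.6, 12.6 and 10.7 CPM, MlxKO 16.1, 14.4 and 15.5 CPM, MycKO 30.1, 23.8 and 28.6 CPM and DKO 27.3, 23.2 and 25.1 CPM. MycKO and DKO libraries overlapped each other and lay above all WT and MlxKO libraries. The mean was 2.30-fold that of WT in MycKO (log2 difference 1.13 ± 0.11, limma adjusted p 3.58e-07) and 2.10-fold in DKO (1.01, 7.63e-07), and the MlxKO difference of 0.34 had an adjusted p of 0.0565, which passed with a mean of at least 5 CPM (0.0487) and with library-total scaling (0.36, 0.0406). DKO exceeded MlxKO by 0.68 (5.39e-05) and differed from MycKO by -0.12 (0.480).

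Levels of Pth1r were much lower in immortalized cells, where DKO no longer sided with MycKO. WT libraries had 1.29, 1.22 and 2.07 CPM, MlxKO 3.05, 3.45 and 2.76 CPM, MycKO 4.91, 2.58 and 3.60 CPM and DKO 0.398, 0.566 and 1.16 CPM. Both single knockouts lay above all WT libraries and DKO lay below them. The differences from WT were 0.88 ± 0.22 in MycKO (limma, adjusted p 0.00712; 1.03 and 0.00176 without WT library 4), 0.71 in MlxKO (0.0271; 0.85 and 0.00761 without it) and -0.57 in DKO (0.0928; -0.43 and 0.198 without it). The MlxKO call did not pass without WT library 2 (0.0845) or 3 (0.0710) or without MlxKO library 5 (0.0550), 6 (0.0969) or 7 (0.0533). DKO was lower than MycKO by -1.46 (0.000416) and than MlxKO by -1.28 (0.00149).

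Mgp, a vitamin K-dependent protein that restrains mineral deposition, was lower in primary MlxKO than in WT but higher in DKO than in MycKO. Primary WT libraries had 233.5, 209.8 and 218.4 CPM, MlxKO 144.7, 127.6 and 150.7 CPM, MycKO 202.3, 180.7 and 220.3 CPM and DKO 522.1, 499.5 and 534.9 CPM. MlxKO lay below and DKO above all other primary libraries, while MycKO overlapped WT. Mean Mgp in WT was 1.56-fold that of MlxKO (log2 difference of MlxKO from WT -0.64, limma adjusted p 7.42e-05), whereas DKO was 2.35-fold WT (1.23, 3.56e-09) and 3.68-fold MlxKO (3.35e-11). DKO exceeded MycKO by 1.37 (3.85e-09), and MycKO differed from WT by -0.14 ± 0.08 (0.172), or by -0.24 (0.0217) with library-total scaling, which moved the median of all genes to -0.095.

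The order of the genotypes was different in immortalized cells. WT libraries had 134.3, 140.1 and 192.9 CPM, MlxKO 469.2, 402.5 and 429.9 CPM, MycKO 171.3, 114.3 and 114.0 CPM and DKO 104.9, 103.2 and 110.3 CPM. MlxKO was 2.79-fold WT (log2 difference 1.49, limma adjusted p 0.000139; 1.65 and 2.00e-06 without WT library 4) and 4.09-fold DKO (7.68e-06), and its libraries overlapped no others. MycKO overlapped WT, with -0.23 ± 0.17 (adjusted p 0.275), -0.07 without WT library 4 (0.722) and -0.43 without MycKO library 9 (0.0334). DKO lay below WT by -0.53 (0.0461), a call lost without WT library 4 (-0.37, 0.0980) or any of DKO libraries 13 (0.125), 14 (0.113) and 15 (0.0911), and with no filter (0.0773) or only the groups compared (0.0806).

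Coch had the largest difference of any member in primary cells. WT libraries had 79.9, 76.4 and 76.1 CPM, MlxKO 66.5, 75.9 and 65.8 CPM, MycKO 20.8, 27.2 and 22.5 CPM and DKO 8.02, 7.71 and 7.77 CPM. MlxKO lay below WT without overlap but within 0.16 on the log2 scale (limma, adjusted p 0.315), MycKO lay below both, and DKO lay lowest. WT was 3.30-fold MycKO (log2 difference -1.69 ± 0.09, adjusted p 1.77e-09) and 9.88-fold DKO (-3.15, 5.02e-13). MycKO was 3.0-fold DKO (-1.46, 1.14e-08), and MlxKO was 8.85-fold DKO (7.67e-13).

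In immortalized cells Coch was lowest in MlxKO. WT libraries had 67.3, 54.5 and 156.5 CPM, the last in library 4, MlxKO 16, 14.4 and 11.3 CPM, MycKO 143.9, 129.4 and 140.8 CPM and DKO 86.6, 96.3 and 97.1 CPM. WT libraries 2 and 3 lay below all MycKO and DKO libraries, and library 4 lay above them. WT was 6.68-fold MlxKO (log2 difference -2.51, limma adjusted p 0.000149; -2.06 and 1.05e-07 without library 4, when WT was 4.39-fold MlxKO), and DKO was 6.72-fold MlxKO (5.10e-05). MycKO against WT was 0.72 ± 0.29 (0.0553) with all libraries and 1.17 ± 0.14 (9.65e-06) without library 4, and it was 0.42 (0.213) without WT library 3 and passed with library-total scaling (0.73, 0.0433). DKO against WT was 0.16 (0.721) and 0.61 (0.00621). DKO against MycKO was -0.56, with an adjusted p of 0.166 and, without library 4, of 0.00250, or with only the groups compared, of 0.00162.

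Among the knockouts themselves, 5 of the 7 genes differed between primary DKO and MycKO (2 higher and 3 lower), where 21.5% of all genes did, and 5 differed between primary DKO and MlxKO (3 higher and 2 lower), where 49.1% did. Immortalized DKO differed from MycKO in 3 genes (2 higher and 1 lower), against 29.4%, and from MlxKO in all 7 tested (4 higher and 3 lower), against 30.1%. Without WT library 4, which then no longer enters the estimate of spread, these were 5 against 40.9% and 7 against 43.2%.

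Whether the effect of Mlx loss differed with Myc status was tested as an interaction, the DKO to MycKO difference minus the MlxKO to WT difference. In primary cells 3 of the 7 genes passed, where 13.5% of all genes did: Mgp at 2.01 ± 0.11 (limma, adjusted p 3.99e-09), Comp at 1.69 ± 0.24 (0.000142) and Coch at -1.30 ± 0.13 (3.80e-06). Sox9, Acan and Pth1r lay at -0.40, -0.43 and -0.45, with adjusted p-values of 0.0524, 0.0610 and 0.0531, and each of them passed without MycKO library 10 (0.0301, 0.0482 and 0.00926), so that the count was then 6. Sox9 also passed without DKO library 14 (0.0167) and Acan without MlxKO library 5 (0.0352). Sox9 and Pth1r passed with a mean of at least 5 CPM (0.0496 for both) and with a robust prior (0.0473 and 0.0484), Sox9 with library-total scaling (0.0448) and Pth1r in DESeq2 (0.0415). Runx2 was at -0.002 (0.994).

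Interactions passed for 6 of the 7 genes in immortalized cells, where 47.4% of all genes passed, and for 6 without WT library 4, where 56.7% did. Comp had 6.45 ± 1.37 (limma, adjusted p 0.00246; 8.11 ± 0.29 and 9.56e-11 without library 4), Sox9 2.10 ± 0.20 (1.40e-05; 2.27 and 3.43e-08 without it), Coch 1.95 ± 0.41 (0.00221; 1.5 and 1.51e-05) and Runx2 0.91 ± 0.18 (0.00176; 0.86 and 0.00128). Pth1r had -2.16 ± 0.32 (0.000247; -2.31 and 2.60e-05 without library 4) and Mgp -1.79 ± 0.24 (0.000127; -1.95 and 2.73e-06). For Sox9 and Runx2, both single knockouts lay below WT and DKO lay near WT. For Pth1r, both lay above WT and DKO below. Acan did not pass, at -0.38 (0.453) with all libraries and -0.67 (0.0958) without WT library 4.

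**Figure D4:**
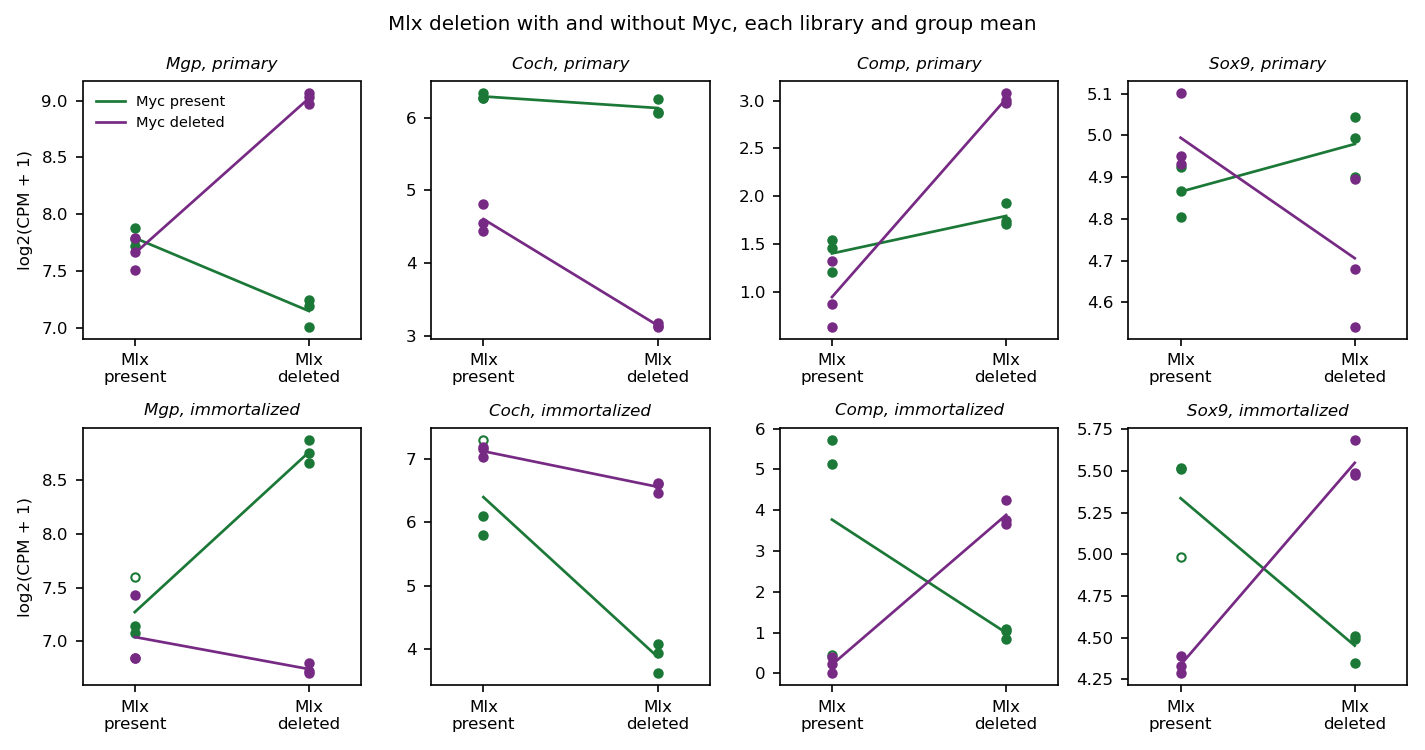
log2(CPM + 1) of Mgp, Coch, Comp and Sox9 with Mlx present and deleted, in cells with Myc (WT and MlxKO) and without Myc (MycKO and DKO), primary above and immortalized below, with 1 point per library, lines through group means and an open circle for WT library 4. For Mgp the step on Mlx loss is -0.64 with Myc and 1.37 without it in primary cells, and 1.49 and -0.30 in immortalized cells.

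Other genes of the lineages gave the members their context. The shares of all genes tested that were higher and lower than WT, beside which the counts of these lists stand, were 20.4% and 21.9% in MycKO, 3.75% and 5.14% in MlxKO and 24% and 25.5% in DKO in primary cells. They were 24.4% and 23.5%, 19.1% and 19.9%, and 10.4% and 8.51% in immortalized cells, and 27.3% and 26.7%, 23.1% and 23.8%, and 12.0% and 10.1% without WT library 4. Medians over all genes lay between -0.005 and 0.007 in each of these comparisons. Of 25 further chondrocyte regulators and matrix genes, 16 were tested in primary cells, of which 2 were higher and 6 lower in MycKO, 1 higher and 2 lower in MlxKO and 6 higher and 4 lower in DKO than in WT. The list's median log2 differences were 0.01, 0.04 and 0.02. Col10a1, the collagen of hypertrophic cartilage, fell in all 3 knockouts, from a mean of 583 CPM in WT to 139.9 in MlxKO, 90.9 in MycKO and 44.8 in DKO, a log2 difference of -3.66 ± 0.09 in DKO (limma, adjusted p 1.05e-13). Col2a1, the main collagen of cartilage, fell in MycKO to 41.3 CPM from 65.3 in WT (4.24e-05) and rose in DKO to 106.0 (1.55e-05). Cilp, a protein of the cartilage interlayer, had the largest rise of the list, from 0.266 to 4.00 CPM in DKO. Sox5 and Sox6 were not called against WT in any primary knockout. The median difference of the 16 in the primary interaction was 0.41, with 6 higher and 2 lower, where 13.5% of all genes passed in either direction with a median of -0.01.

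Of these chondrocyte genes, 15 were tested in immortalized cells, and 9 were lower and 1 higher in MycKO than in WT (10 and 1 without WT library 4), 4 lower and 2 higher in MlxKO (8 and 3) and 3 lower and 4 higher in DKO (4 and 4). Medians were -0.86, -0.48 and 0.31, or -1.11, -0.71 and 0.10 without library 4. Hapln1, the link protein that ties aggrecan to hyaluronan, fell in MycKO from a mean of 56.4 to 0.442 CPM (log2 difference -5.24 ± 0.25, limma adjusted p 3.94e-08). Sox5 fell in MycKO from 26.6 to 0.925 CPM (7.57e-08), and in MlxKO and DKO to 13.3 and 12.4 CPM. Sox6 fell in MycKO from 3.17 to 0.846 CPM and rose in DKO to 7.15 CPM. Col2a1 was 3.24 CPM in WT, 0.332 in MlxKO, 1.28 in MycKO and 33.1 in DKO, the largest rise of the list, at 3.08 ± 0.29 (3.01e-05), or 2.72 without library 4. Col10a1 fell to 4.89 CPM in MycKO and to 46.9 CPM in DKO from 103.3 in WT. In the interaction 10 of the 15 were higher and 1 lower, with a median of 2.26, where 47.4% of all genes passed in either direction with a median of -0.01. Without library 4 these were 12 and 1 with a median of 2.43, against 56.7% and -0.008. No test of the list as a whole was made.

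**Figure D5:**
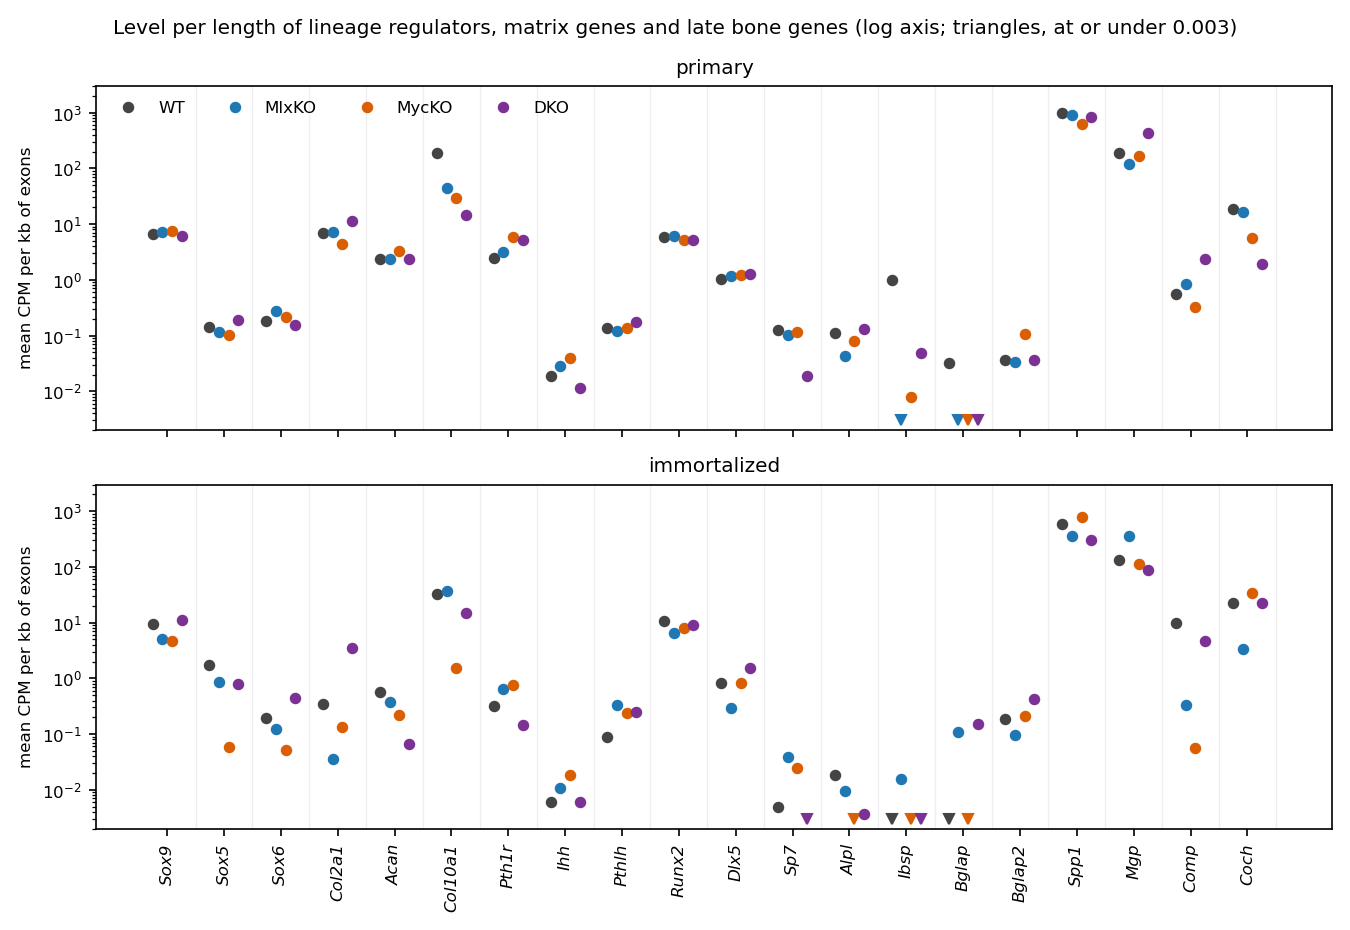
Mean CPM per kb of exons (log axis, triangles at or under 0.003) of the members and of further lineage regulators, matrix genes and late bone genes by genotype. Primary WT spans Spp1 at 973.2, Col10a1 at 185.9 and Mgp at 185.8 down to Ihh at 0.0187 CPM per kb.

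Bone genes beyond the members did not share a direction. Of 22 osteoblast and osteocyte genes, 12 were tested in primary cells (5 higher and 4 lower in MycKO, 1 and 0 in MlxKO, 4 and 4 in DKO) and 15 in immortalized cells (1 and 4, 2 and 2, 2 and 2, and without WT library 4, 3 and 7, 1 and 4, 2 and 3). Medians were 0.10, 0.08 and 0.02 in primary cells and -0.26, -0.40 and -0.03 in immortalized cells, or -0.23, -0.21 and -0.05 without library 4. Spp1, which encodes osteopontin, a protein that macrophages make as well, fell in primary MycKO from 2767 to 1786 CPM (limma, adjusted p 8.86e-06), where macrophage markers were also lower, a part that was not tested, and in immortalized DKO from 1657 to 853 CPM (log2 difference -0.86, 0.0325), or -0.54 without library 4 (0.0399). The decoy receptor Tnfrsf11b (osteoprotegerin), which holds back bone resorption, rose in primary DKO from 44.0 to 138.5 CPM (9.39e-11). Omd, osteomodulin, had the largest fall in both tables, from 3.63 to 1.31 CPM in primary MycKO and from 100.4 to 1.64 CPM in immortalized MycKO. Dmp1, an osteocyte protein, rose in immortalized MlxKO from 0.216 to 2.33 CPM. Msx2 fell in primary MycKO and DKO by 0.81 and 0.85, and in immortalized MycKO by 0.70 on the log2 scale. Dlx5 was not called with all libraries, and without library 4 it was higher in immortalized DKO by 1.35 and in MycKO by 0.66. Osteocalcin, from Bglap and Bglap2, stayed below the filter in all groups.

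For mineralization and Gla protein genes, 11 of the 15 found were tested in primary cells (3 higher and 1 lower in MycKO, 0 and 0 in MlxKO, 3 and 1 in DKO) and 10 in immortalized cells (1 and 3, 0 and 4, 1 and 1, and without WT library 4, 2 and 4, 2 and 5, 1 and 2). Medians were 0.06, -0.05 and 0.04 in primary cells and -0.20, -0.32 and -0.17 in immortalized cells, or -0.05, -0.21 and -0.13 without library 4. Gas6, a Gla protein like Mgp, had the largest primary rise, from 302.9 to 628.1 CPM in MycKO, and Slc20a1, a phosphate importer, the largest primary fall, from 229.7 to 126.6 CPM in DKO. In immortalized MycKO, Enpp3 rose from 2.56 to 7.95 CPM and Nt5e, an ectonucleotidase that turns AMP to adenosine, fell from 22 to 1.85 CPM.

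Ligands upstream of Pth1r were near absent: Pthlh, which encodes its ligand, and Ihh, the hedgehog that induces Pthlh in growth plates, were below the filter in both tables. Of 15 genes of this loop, 8 were tested in primary cells (3 higher and 2 lower in MycKO, 0 and 0 in MlxKO, 4 and 1 in DKO) and 7 in immortalized cells (2 and 2, 3 and 1, 0 and 0, and without library 4, 2 and 2, 3 and 1, 0 and 1). Medians were 0.08, -0.04 and 0.17 in primary cells and -0.10, 0.09 and -0.05 in immortalized cells, or -0.06, 0.14 and 0.06 without library 4. The hedgehog receptor Ptch1 had the largest fall in both, from 18.5 to 11.2 CPM in primary and from 46.7 to 15.5 CPM in immortalized MycKO. The hedgehog-binding Hhip rose in immortalized MlxKO from 1.55 to 26.0 CPM, where WT without library 4 had a mean of 0.139 CPM.

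Of 18 transcription factors of the skeletal mesenchyme, 16 were tested in primary cells (5 higher and 3 lower in MycKO, 4 and 0 in MlxKO, 6 and 2 in DKO) and 13 in immortalized cells (5 and 3, 7 and 3, 4 and 2, and without library 4, 6 and 4, 7 and 4, 3 and 4). Medians were 0.09, 0.19 and 0.18 in primary cells and 0.08, 0.71 and 0.05 in immortalized cells, or 0.19, 0.57 and 0.15 without library 4. Shox2, a limb homeobox gene, rose in primary DKO from 28.3 to 74.6 CPM, and Msx1 fell there from 22.8 to 4.42 CPM. Meox2, a somite homeobox gene, fell in immortalized MlxKO from 13.2 to 0.182 CPM (log2 difference -2.68, or -4.13 without library 4), with a WT library overlapping MlxKO when library 4 was kept and none without it.

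As a description of shared pattern, each member tested in both tables was correlated with 11816 genes over the 24 libraries, with each table centred on its own mean; libraries of a genotype share their pool and the points are not independent. The 2 genes most like each member were Tnfrsf10b and Acot2 for Sox9 (Pearson r 0.936 and 0.929), Tgfbr3 and Prr14l for Acan (0.855 and 0.853), and Fzd4 and Tmem30b for Comp (0.962 and 0.960). They were Rc3h2 and Sec24a for Runx2 (0.912 and 0.911), Iglon5 and Chl1 for Pth1r (0.905 and 0.888), Hp and Hoxc12 for Mgp (0.912 and 0.898) and Tuba1b and Adss for Coch (0.934 and 0.918). The likeness to Coch held within each table (for Tuba1b 0.947 in primary and 0.920 in immortalized cells), whereas that to Acan came from immortalized cells (for Tgfbr3 0.914, against 0.194 in primary cells). The likeness to Sox9 was also weaker in primary cells (Tnfrsf10b 0.424, against 0.963 in immortalized cells, and Acot2 0.644 against 0.946). So was that of Sec24a to Runx2 (0.603 against 0.960).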

How the data were processed

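The authors extracted RNA from triplicate sets of each genotype, made directional poly-A libraries for Illumina sequencing, and used CLC Genomics Workbench to map reads to GRCm39 and count them by gene. The deposited signal is headed CPM, and the libraries' sums ran from 915691 to 1077213 and were not equal; scaling between libraries is already in them and they were not rescaled. Deposited values were whole multiples of a step per library (100.0% of low values within a tolerance of 0.1 read), which gave the reads and depth. Groups came from the labels, all columns were mapped, and 0 were left over.

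Values were fitted as log2(CPM + 1) with limma 3.58.1 in R 4.3.3 (mean trend, all 4 genotypes of a table fitted together, no replicate block) for genes reaching 1 CPM or more in 3 or more of 12 libraries, 13101 in the primary and 12880 in the immortalized table, with Benjamini-Hochberg adjustment and 6 comparisons per table. Alternatives were a pseudocount of 0.1, no filter, a mean of at least 5 CPM, median-ratio and library-total scaling, only the groups compared, a robust prior, leaving out each library, and count tests of the recovered reads with edgeR 4.0.16 and with DESeq2 1.42.0. Omitting immortalized WT library 4 from comparisons it does not enter was added after the data were seen. The tests were tried on simulated data. Members, lists and alternatives were chosen with earlier results of these data known. Named genes were all members, Myc and Mlx, 12 fixed lineage genes, the called gene of each list with the largest rise and fall against WT per table, the 2 genes most like each member, and the highest called marker of each cell type list; some of these genes are not reported here. Exon lengths came from GENCODE vM39 on GRCm39, in which 41181 of the 41710 genes were found. Figures were drawn with matplotlib 3.10.9.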

Additional observations from a re-analysis of the deposited data

Results flagged for a closer look

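The difference between groups with Mlx deleted and present varied with Myc status for several genes. This is by the interaction term in limma with a Benjamini-Hochberg adjusted p under 0.05. In primary cells the genes were Comp (1.69 on the log2 scale), Mgp (2.01) and Coch (-1.30). In immortalized cells they were Sox9 (2.10), Comp (6.45), Runx2 (0.91), Pth1r (-2.16), Mgp (-1.79) and Coch (1.95).

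Other differences ran in opposite directions in the 2 kinds of cells, with libraries that did not overlap in either table. The difference between tables was not tested, because they were normalized separately, and some of the values did not pass within their table. Sox9 differed from WT in MycKO by 0.13 in primary and -1.0 in immortalized cells, from MycKO in DKO by -0.29 and 1.21, and from MlxKO in DKO by -0.27 and 1.1. Acan differed from WT in MycKO by 0.43 and -1.0. Runx2 in DKO differed from MlxKO by -0.20 and 0.47. Pth1r in DKO differed from WT by 1.01 and -0.57 and from MlxKO by 0.68 and -1.28. Mgp differed from WT by -0.64 and 1.49 in MlxKO and by 1.23 and -0.53 in DKO, and Mgp in DKO differed from MycKO by 1.37 and -0.30 and from MlxKO by 1.88 and -2.02. Coch in DKO differed from MlxKO by -2.99 and 2.67. Groups of 3 libraries were not examined for single outlying libraries by this route.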

How the results depend on the processing

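Of 1326 values of single members under other settings, 1208 kept direction and side of the threshold, 53 lost a call, 38 gained one and 27 changed direction. Of the 27, 1 was called, Comp in immortalized DKO against WT without WT library 4 (-1.54). On leaving out libraries this comparison ranged from -1.54 to 1.1, and it was -1.029 in edgeR and -1.035 in DESeq2, while Coch there ranged from -0.139, without WT library 3, to 0.613. The others were primary values near 0, none of them called, which on leaving out libraries ranged from -0.105 to 0.032 for Acan and -0.026 to 0.081 for Runx2 in MlxKO against WT, -0.102 to 0.065 for Acan in DKO against WT, -0.068 to 0.078 for Runx2 in DKO against MycKO, -0.075 to 0.107 for Acan in DKO against MlxKO and -0.084 to 0.061 for Runx2 in the interaction. Acan in DKO against MlxKO was also 0.018 with median-ratio scaling and 0.029 in edgeR and DESeq2, and the Runx2 interaction 0.010 with median-ratio scaling and in edgeR and 0.007 in DESeq2. For the low genes Acan, Comp and Pth1r in immortalized cells, a pseudocount of 0.1 and the count tests gave differences over 1.5 times as large in several comparisons. Of 192 counts of members called, 178 stayed within 1.5 times. In primary cells the count in MlxKO against WT went from 1 to 2 with a mean of at least 5 CPM and with library-total scaling, and that of the interaction from 3 to 5 with a robust prior and 3 to 6 on leaving out libraries. In immortalized cells MycKO against WT went from 5 to 3 with a mean of at least 5 CPM, which leaves 5 members tested, and to 2 with only the groups compared, and DKO against WT from 2 to 1 with no filter, a mean of at least 5 CPM or only the groups compared, and to between 1 and 3 on leaving out libraries. DKO against MycKO went from 3 to 5 with only the groups compared and to between 3 and 5 on leaving out libraries, with 5 without WT library 4. The cause of these changes was not tested beyond the construction named. Runx2 in immortalized DKO against MlxKO was not called with library-total scaling (adjusted p 0.0691), and Sox9 and Comp calls in primary cells at adjusted p-values over 0.03 were lost under several settings. Over all genes, with only the groups compared, limma called 906 in place of 2434 in immortalized DKO against WT and 6011 in place of 3879 in DKO against MlxKO.

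Library-total scaling moved the median of all genes by over 0.1 in primary DKO against MlxKO (-0.12), immortalized MlxKO against WT (0.16), DKO against MlxKO (-0.16) and the interaction (-0.18). The share of higher calls went from 48.3% to 31.4% in primary MycKO, 42.2% to 53.8% in MlxKO and 48.5% to 37.2% in DKO against WT, from 47.3% to 32.4% in DKO against MlxKO, and in immortalized cells from 49.0% to 69.9% in MlxKO against WT, 54.0% to 29.2% in DKO against MlxKO and 49.9% to 37.2% in the interaction. Called members kept their direction under each scaling. No paired analysis was possible because the numbers in the column names do not match the replicate numbers in the labels. Depth limits Sp7, Ibsp and Alpl. Their immortalized libraries, most primary Ibsp libraries and primary DKO libraries for Sp7 were near or under the floor of 3 reads. Primary Sp7 outside DKO held 4 to 12 reads, and primary Alpl held 3 to 22.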

Other observations

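Other cell type lists showed how the cultures differed beside the cartilage and bone genes. In primary cells, Lyz2, the lysozyme of macrophages and the highest called marker of their list, was 228.1 CPM in WT, 196.8 in MlxKO, 36.3 in MycKO and 88.5 in DKO. Acta2, the smooth muscle actin, was 3955 CPM in primary WT and 6381 in MycKO, and 1582 and 5967 CPM in immortalized WT and MycKO, and the summed smooth muscle list was 5722 to 6349 CPM in primary WT and 9097 to 10280 CPM in primary MycKO, and 1603 to 3215 and 8683 to 9176 CPM in immortalized WT and MycKO. Skeletal muscle markers summed to 190.8 to 231.5 CPM in immortalized MycKO against 13.2 to 22.8 CPM in WT, with Acta1 at 215.8 and 18.6 CPM. Acta1 alone made up nearly all of these sums, and 7 of the 9 markers were under 0.2 CPM in all libraries of either group. Kdr led the endothelial list, at 12.8 CPM in primary WT and 2.70 in MlxKO, and 2.64 CPM in immortalized WT and 15.9 in MycKO. The highest called markers of the remaining lists were Lpl (54.7 CPM in primary WT, 125.2 in MycKO) and Pparg (26.6 CPM in immortalized WT, 3.70 in MlxKO) for adipocytes, Krt18 for epithelium (10.5 CPM in primary WT, 0.751 in MycKO, 0.400 in immortalized WT, 1.28 in MlxKO), and Ngfr (17.9 CPM in primary WT, 27.6 in MycKO) and Erbb3 (0.526 CPM in immortalized WT, 1.3 in MlxKO) for glia and neural crest. In immortalized cells the epithelial list summed to 0.365 to 5.915 CPM in WT and 1.31 to 1.63 CPM in MlxKO. Krt18 was thus a small part of the mean WT sum. The glia and neural crest list summed to 1.22 to 2.635 CPM in WT and 2.14 to 2.32 CPM in MlxKO. Both MlxKO ranges lay within those of WT, and 5 to 6 of the 8 markers of each list were under 0.2 CPM in these groups. Col1a1 led the fibroblast list, at 12550 CPM in immortalized WT and 5524 in MycKO, where it was called lower. In primary cells it was 17260 CPM in WT and 22000 in MycKO, where it was called higher. No tie of these values to the members was tested.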
